A study of Danio rerio with 16 samples.

Results

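The cells described here are zebrafish neutrophils that carried RNA of the cytokine genes csf3b and tnfb, called csf3b/tnfb neutrophils from here on. csf3b encodes a granulocyte colony-stimulating factor, the main growth and survival signal of neutrophils, and tnfb encodes a tumour necrosis factor. A barcode was kept with at least 1000 unique molecular identifiers (UMIs), 300 to 7500 genes and at most 10% mitochondrial UMIs. It was taken as a neutrophil when lyz, the lysozyme gene of zebrafish granulocytes, made up at least 1% of its UMIs and 6 macrophage genes (mfap4, mpeg1.1, marco, fgl2a, lgals3bpb and c1qb) together had at most 2 UMIs. Cells with more than 2 UMIs of 6 cell cycle genes (mki67, top2a, ccnb1, cdk1, pcna and mcm5) were set aside, and the cells with at least 2 UMIs of csf3b and tnfb together were then taken. This gave 821 cells of 3368 non-cycling neutrophils, 3833 neutrophils and 7599 barcodes past the limits. They were set against the other 2547 non-cycling neutrophils, called other neutrophils below. The levels of csf3b, tnfb, lyz and the other genes of this rule chose the cells, so the cells were selected on these measured values, which are given only as a description.

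All embryos carried Tg(mpx:Dendra2), a photoconvertible protein under the myeloperoxidase promoter, which marks neutrophils strongly and macrophages weakly. The head was photoconverted at 34 and 44 hours post fertilization (hpf), which turns cells from the rostral blood island (RBI) red and leaves cells of the caudal hematopoietic tissue (CHT) green, so that the sorted colours are enriched for these origins rather than pure. The caudal fin was transected at 54 hpf in the cut embryos and left intact in the normal ones, and pooled embryos were dissociated 3 h later and sorted by colour for 10x Genomics 3' sequencing. The 4 libraries were thus RBI-derived cut, RBI-derived normal, CHT-derived cut and CHT-derived normal, and the red and the green library of a condition came from the same pool of embryos.

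Neutrophils release cytokines as well as granule proteins, and tissue damage or microbial products switch these genes on through toll-like and cytokine receptors. Much of this response runs through NF-kB, a family of transcription factors held in the cytoplasm by IkB proteins, and through the AP-1 factors of the Jun, Fos and Atf families. Both pathways induce their own inhibitors, among them IkB genes and phosphatase genes such as dusp1, so that inhibitor RNA commonly accumulates with the response.

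The csf3b/tnfb neutrophils numbered 274 in the RBI-derived cut, 219 in the RBI-derived normal, 244 in the CHT-derived cut and 84 in the CHT-derived normal library. They were 23.8% (21.4 to 26.4, exact 95% Clopper-Pearson interval), 25.9% (22.9 to 28.9), 28.8% (25.7 to 31.9) and 16.03% (12.99 to 19.5) of the non-cycling neutrophils of these libraries, in that order. A threshold in UMIs is passed more easily by a deeply read cell, so each cell was also thinned to 1000 UMIs. The shares were then 13.5% (11.6 to 15.6) in RBI-derived cut, 11.5% (9.39 to 13.8) in RBI-derived normal, 16.6% (14.2 to 19.3) in CHT-derived cut and 6.68% (4.70 to 9.17) in CHT-derived normal. On both of these scales the CHT-derived normal library had the lowest share, and its interval did not overlap that of the CHT-derived cut library, whereas the intervals of the RBI-derived cut and normal libraries overlapped. With at least 2000 UMIs per barcode the shares were 20.2% (17.7 to 22.9) in RBI-derived cut, 30.0% (26.5 to 33.7) in RBI-derived normal, 20.6% (17.5 to 23.97) in CHT-derived cut and 16.2% (13.004 to 19.7) in CHT-derived normal, so that the RBI-derived intervals no longer overlapped and the CHT-derived ones did. Each combination of origin and cut was 1 library, the shares were not tested between conditions, and the intervals cover counting error only.

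**Figure D1:**
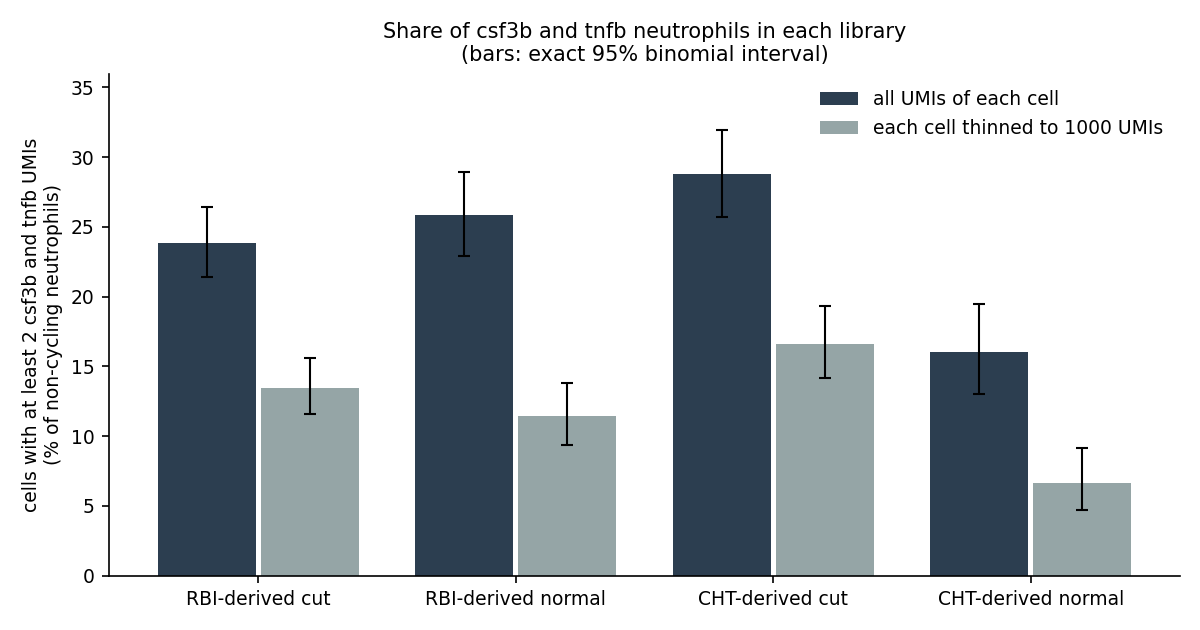
Share of non-cycling neutrophils with at least 2 csf3b and tnfb UMIs in each of the 4 libraries, with all UMIs of a cell (dark bars) and with each cell thinned to 1000 UMIs (light bars). Error bars are exact 95% binomial intervals, and the CHT-derived normal library is lowest on both scales (16.03% and 6.68%).

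Free RNA in the droplets can put UMIs into cells that do not make a gene. Empty droplets of the RBI-derived cut, RBI-derived normal, CHT-derived cut and CHT-derived normal libraries held 314, 111, 416 and 69.2 counts per 1000000 UMIs (CPM) of csf3b and 563, 80.3, 819 and 173 CPM of tnfb. Neural barcodes, which should make neither cytokine, reached 2 UMIs in 1.45% of 69 in RBI-derived cut, 0% of 135 in RBI-derived normal, 1.199% of 417 in CHT-derived cut and 0.253% of 395 in CHT-derived normal (the count of 0 allows a share of up to 2.22%). These barcodes were shallower, with medians of 1486, 2323, 1890 and 3228 UMIs against medians of 3453, 4322, 4162 and 8043.5 UMIs in non-cycling neutrophils. Macrophages, with at least 10 UMIs of the 6 macrophage genes, reached 2 UMIs in 69.7% of 142 cells of RBI-derived cut, 17 of 34 of RBI-derived normal, 81.25% of 832 of CHT-derived cut and 68.8% of 522 of CHT-derived normal, at median depths of 4727.5, 7391, 5672.5 and 9369 UMIs. Of the csf3b/tnfb neutrophils, 251 of 274, 210 of 219, 134 of 244 and 72 of 84 held no UMI of the 6 macrophage genes in RBI-derived cut, RBI-derived normal, CHT-derived cut and CHT-derived normal. Between 5 and 21 cells of a library shared a barcode with a cell of another library, and 3 libraries had 0 to 1 such csf3b/tnfb neutrophils while CHT-derived normal had 2.

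By the UMIs that chose them, 40.3% of the cells had both genes, 40.6% tnfb only and 19.1% csf3b only. With so few UMIs a cell, a gene with no UMI cannot be called absent. Cells with csf3b only made up 17.5% in RBI-derived cut and 28.8% in RBI-derived normal, and 10.2% in CHT-derived cut and 25.0% in CHT-derived normal. The median cell had 5 UMIs of the 2 genes in 3 libraries and 4 UMIs in the CHT-derived cut library, and the highest cell had 59. Just inside the threshold lay 222 cells with exactly 2 UMIs, just outside it 510 cells with exactly 1, and 2037 neutrophils had none.

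The label of these cells as neutrophils was checked on genes that the rule did not use. mpx, the myeloperoxidase gene, measured 3217, 3742, 2303 and 3678 CPM in csf3b/tnfb neutrophils of RBI-derived cut, RBI-derived normal, CHT-derived cut and CHT-derived normal, against 3048, 4340, 2372 and 3436 CPM in the other neutrophils. The groups overlapped, and the fitted log2 fold change of mpx was -0.04 (edgeR adjusted p = 0.83). The median depth of csf3b/tnfb neutrophils was lower than in the other neutrophils of the cut libraries (2953.5 against 3525 UMIs in RBI-derived cut, 2528 against 4533 in CHT-derived cut) and of CHT-derived normal (7069.5 against 8156), and higher in RBI-derived normal (5149 against 3700). lyz, which chose the cells, was 78835, 128965, 99533 and 138994 CPM in csf3b/tnfb neutrophils and 82582, 135552, 123777 and 157414 CPM in the others. In such sums deep cells weigh more. The median lyz share of a cell was 6.38%, 12.3%, 5.63% and 12.95%, against 7.44%, 13.7%, 10.7% and 15.2%. The gap was widest in CHT-derived cut. There mpx was found in 83.2% of csf3b/tnfb neutrophils against 91.2% of the others, and in 75.4% against 77.6% with cells thinned to 1000 UMIs. mmp9, the gelatinase gene of the neutrophil granules, did not set these cells apart. It measured 7436 (RBI-derived cut), 5700 (RBI-derived normal), 3107 (CHT-derived cut) and 4335 CPM (CHT-derived normal) in csf3b/tnfb neutrophils, against 7849, 6702, 2851 and 3282 CPM in the others. It was lower in both RBI-derived libraries and higher in both CHT-derived ones, with a fitted log2 fold change of 0.04 (edgeR adjusted p = 0.85).

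For the comparison across genes, UMIs were summed over the csf3b/tnfb neutrophils and over the other neutrophils of each library, and the within-library difference was set against its spread over the 4 libraries with edgeR's quasi-likelihood test and Benjamini-Hochberg adjustment. The 4 libraries are of 4 conditions, and those of a condition share embryos. The p-values rest on the UMI counts and on a spread that edgeR partly shares between genes. A small p-value therefore does not mean that a gene was even over the libraries. ccl34a.4, for example, had within-library log2 ratios of 2.25 ± 1.85 (SD, n = 4 libraries) at an edgeR adjusted p of 6.7e-11. Of 6143 genes tested, 437 were higher in csf3b/tnfb neutrophils (7.11%) and 157 lower (2.56%), together 9.67%, at an adjusted p under 0.05. The higher genes changed more: 158 of them changed at least 2-fold, against 13 of the lower genes. Of the 437 higher genes 390 were higher in all 4 libraries, and of the 157 lower genes 140 were lower in all 4, whereas 986 and 642 of all tested genes were. The median of all genes was -0.02 on the log2 scale.

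Several inhibitors of NF-kB were among the genes that rose. nfkbiaa, which encodes an IkB protein, measured 462, 174, 604 and 251 CPM in csf3b/tnfb neutrophils of RBI-derived cut, RBI-derived normal, CHT-derived cut and CHT-derived normal, against 74.8, 29.1, 120 and 28.2 CPM in the other neutrophils. The levels did not overlap, and even in uncut embryos the csf3b/tnfb neutrophils stood above the other neutrophils of cut embryos. This RNA was not particular to these cells. Macrophages held 505, 240, 767 and 447 CPM of nfkbiaa, above the csf3b/tnfb neutrophils of each library, and empty droplets 290, 37.8, 523 and 147 CPM. Against other neutrophils nfkbiaa was 6.10-fold higher, with within-library log2 ratios of 2.67 ± 0.34 (SD, n = 4 libraries; edgeR adjusted p = 2.0e-44). nfkbiab, its paralog, was 3.12-fold higher (1918, 1230, 2544 and 1413 CPM, against 558, 458, 826 and 404 CPM; edgeR adjusted p = 1.1e-49). tnfaip3, the A20 protein that edits ubiquitin chains to end NF-kB signalling, measured 91.2, 58.6, 66.1 and 32.0 CPM, against 18.4, 18.1, 9.84 and 4.99 CPM, and was 4.75-fold higher. Macrophages held 110, 50.3, 90.2 and 50.4 CPM of tnfaip3. The tnfaip3 partner tnip2 and the signalling adaptor traf3 had log2 fold changes of 2.12 and 2.09, with edgeR adjusted p-values of 3.3e-06 and 3.7e-08. The list counted below does not hold traf3. tnip2 passed the filter on low counts only through csf3b/tnfb neutrophils, with 3.87, 1.89, 4.01 and 2.35 CPM in the others. traf3, at 3.22, 7.17, 4.74 and 2.35 CPM in the others, would not have passed it on those sums alone. The fold changes and p-values of tnip2 and traf3 are therefore a description.

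Of 20 tested genes of the NF-kB list, 10 were higher and none was lower, against 7.11% higher and 2.56% lower of all tested genes. The median log2 fold change was 0.54, against -0.02 over all genes. The 10 include tnip2 and bcl3, which the sums of the other neutrophils alone would not have taken past the filter. The remaining higher genes were the subunit genes nfkb2 (1.02), relb (0.98) and rel (0.77), the nuclear IkB gene bcl3 (1.68), the IkB gene nfkbie (0.41) and birc2 (0.32), a ubiquitin ligase of the TNF receptor complex. nfkb1 (0.67), nfkbiz (0.50), traf1 (0.57) and ikbkg (0.38) did not pass the test. The same number, 10 of this list, was called higher without the RBI-derived cut, the RBI-derived normal or the CHT-derived cut library and 8 without CHT-derived normal. Over all genes 326 of 6192, 397 of 6230, 317 of 6105 and 390 of 6287 were higher in these fits. With each cell thinned to 1000 UMIs, nfkbiaa was found in 36.1%, 15.1%, 38.9% and 27.4% of csf3b/tnfb neutrophils of RBI-derived cut, RBI-derived normal, CHT-derived cut and CHT-derived normal, in 6.74%, 2.07%, 12.3% and 3.18% of the others, and in 4.35%, 0.741%, 0.719% and 1.01% of neural barcodes.

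**Figure D2:**
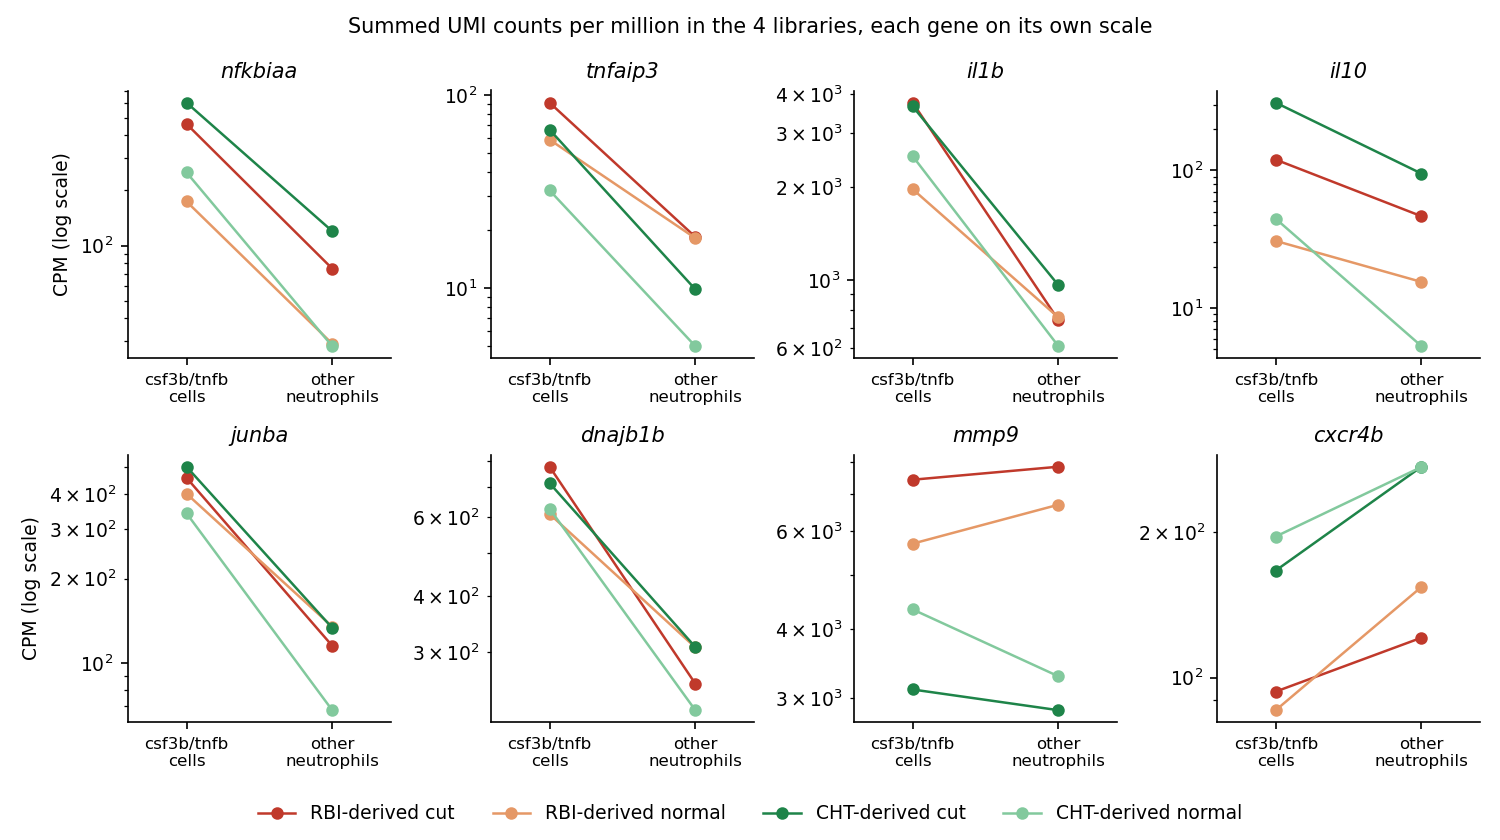
Level of 8 genes in CPM (log axis, each gene on its own scale) in csf3b/tnfb cells (left) and other neutrophils (right), 1 line per library. nfkbiaa, tnfaip3, il1b, il10, junba and dnajb1b are higher in csf3b/tnfb cells of every library, cxcr4b is lower in each, and mmp9 runs both ways.

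The gene with the largest fold change was tagapa. It measured 47.4, 31.6, 38.1 and 33.8 CPM in csf3b/tnfb neutrophils of RBI-derived cut, RBI-derived normal, CHT-derived cut and CHT-derived normal, against 2.26, 1.13, 2.55 and 2.06 CPM in the others. All 4 levels lay above 30 CPM in the one group and below 3 CPM in the other, an 18.1-fold difference (edgeR adjusted p = 1.2e-27). The size of this fold change rested on few UMIs, 40, 34, 30 and 19 in csf3b/tnfb neutrophils and 7, 3, 7 and 7 in the others. tagapa passed the filter on low counts only through its sums in csf3b/tnfb neutrophils, where it was high. Its rank, fold change and p-value are therefore a description. zgc:158343, which the files name only by a clone symbol (ENSDARG00000099411), was 8.63-fold higher (244, 143, 540 and 109 CPM, against 32.2, 11.3, 68.1 and 10.9 CPM). It was not particular to these cells, at 549, 534, 876 and 502 CPM in macrophages and 257, 29.8, 603 and 207 CPM in empty droplets. pim2, a serine/threonine kinase gene of the Pim family, was 6.51-fold higher (524, 195, 596 and 244 CPM, against 82.2, 38.5, 105 and 19.4 CPM; edgeR adjusted p = 4.2e-09). plekhf1, a gene of endosomal trafficking, had a log2 fold change of 2.26 (edgeR adjusted p = 0.014) and did not pass without the RBI-derived normal library (2.26, adjusted p = 0.11). The clone gene si:ch211-277c7.6 had a log2 fold change of 2.203, over within-library ratios of 2.58 ± 1.07.

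**Figure D3:**
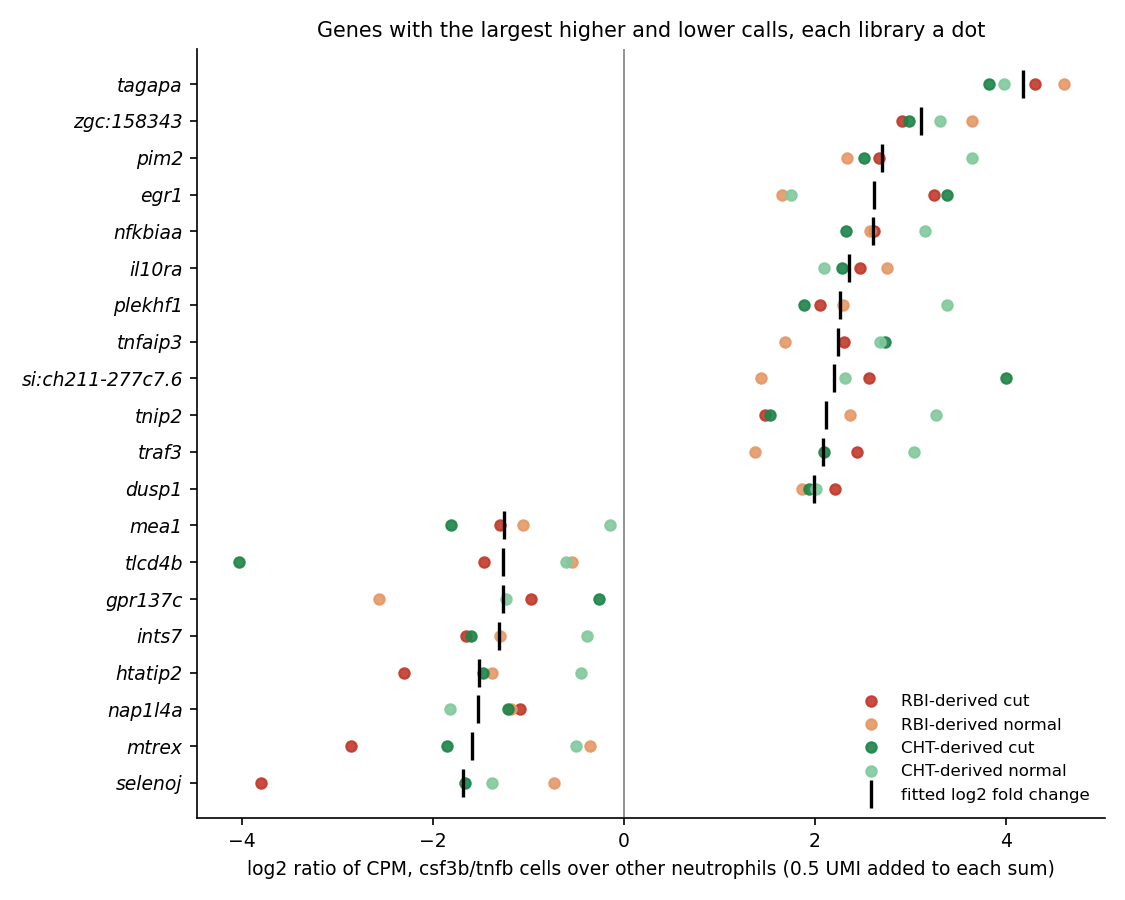
Within-library log2 ratio of CPM, csf3b/tnfb cells over other neutrophils, for the 12 genes with the largest positive and the 8 with the largest negative fitted change among calls of 1 direction in all 4 libraries. Dots are libraries and black marks the fitted log2 fold change, from 4.18 for tagapa to -1.68 for selenoj.

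Immediate early genes, which cells transcribe soon after many stimuli without new protein, formed the largest group. Of 39 tested, 28 were higher and none was lower, with a median log2 fold change of 0.85. The share higher was 71.8%, against 7.11% of all tested genes, of which 2.56% were lower. junba, an AP-1 subunit gene, measured 457, 401, 501 and 342 CPM in csf3b/tnfb neutrophils of RBI-derived cut, RBI-derived normal, CHT-derived cut and CHT-derived normal, against 115, 135, 133 and 67.8 CPM in the others, 3.77-fold higher (edgeR adjusted p = 2.2e-38). The lowest level in csf3b/tnfb neutrophils was above the highest in the others. Macrophages held 366, 255, 518 and 356 CPM of junba, below csf3b/tnfb neutrophils in both RBI-derived libraries and above them in both CHT-derived ones. jun (1.68), junbb (1.27), jund (1.19), fosab (1.18) and atf3 (1.55) were higher on the log2 scale, as were egr1 (2.62) and egr3 (1.90) of the Egr zinc finger factors and nr4a1 (1.17) and nr4a3 (0.96) of the orphan nuclear receptors. On thinned cells jun was found in 25.9%, 23.3%, 23.8% and 19.0% of csf3b/tnfb neutrophils and 7.31%, 9.55%, 8.44% and 7.27% of the others. Neural barcodes held it in 18.8%, 22.2%, 24.0% and 28.6%, so jun RNA was not particular to csf3b/tnfb neutrophils. For atf3 these shares were 52.6%, 37.0%, 44.7% and 42.9% in csf3b/tnfb neutrophils and 15.9%, 17.8%, 22.5% and 19.5% in neural barcodes. Other neutrophils held atf3 in 20.0%, 14.2%, 22.2% and 15.2%. dusp1, a phosphatase that switches off MAP kinases, was 3.99-fold higher, with within-library log2 ratios of 2.01 ± 0.15 (SD, n = 4 libraries; edgeR adjusted p = 3.6e-32). dusp2, of the same family, measured 475, 289, 254 and 226 CPM, against 69.7, 101, 87.8 and 57.3 CPM, with an edgeR adjusted p of 0.012. socs3a and socs3b, which inhibit JAK and STAT signalling, had log2 fold changes of 1.41 and 0.99. egr1 rested on few UMIs in CHT-derived normal, where it measured 3.56 CPM against 1.17 CPM.

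il1b, the gene of the inflammatory cytokine interleukin-1 beta, measured 3756, 1970, 3654 and 2520 CPM in csf3b/tnfb neutrophils of RBI-derived cut, RBI-derived normal, CHT-derived cut and CHT-derived normal, against 742, 756, 962 and 611 CPM in the other neutrophils. The groups did not overlap, and il1b was 3.75-fold higher (edgeR adjusted p = 1.6e-03). On cells thinned to 1000 UMIs il1b was found in 86.1%, 63.9%, 84.8% and 65.5% of csf3b/tnfb neutrophils, 37.7%, 33.8%, 42.9% and 30.5% of the others, and 2.90%, 1.48%, 4.32% and 2.28% of neural barcodes. il10, the gene of an anti-inflammatory cytokine, was 3.01-fold higher (120, 30.7, 310 and 44.5 CPM, against 46.4, 15.5, 94.7 and 5.29 CPM; edgeR adjusted p = 2.2e-11). On thinned cells il10 was found in 13.1%, 1.83%, 18.9% and 8.33% of csf3b/tnfb neutrophils and 5.6%, 1.91%, 9.77% and 0.227% of the others. It was thus not found more often in RBI-derived normal at equal depth. il4 rose less, with a log2 fold change of 0.68, and was uneven between libraries, at 1725 and 2171 CPM in the RBI-derived cut and normal libraries and 407 and 890 CPM in the CHT-derived ones, against 916, 1786, 198 and 575 CPM in the others. The growth factor gene hbegfa had a log2 fold change of 0.42 (edgeR adjusted p = 7.2e-03) and was not called without the RBI-derived cut library (0.24, adjusted p = 0.36). In all, 4 of 8 tested cytokine and growth factor genes were higher and none lower, with a median of 0.36. All tested genes were higher in 7.11% and lower in 2.56%.

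Several cytokines were too sparse to test. csf3a, the paralog of csf3b, had 29, 20, 10 and 1 UMIs in csf3b/tnfb neutrophils of RBI-derived cut, RBI-derived normal, CHT-derived cut and CHT-derived normal and 10, 10, 11 and 3 UMIs in the more numerous other neutrophils. tnfa had 4, 1, 18 and 5 UMIs, against 7, 2, 12 and 1 UMIs. cxcl8a, the neutrophil chemoattractant, had 16, 5, 62 and 1 UMIs, against 12, 1, 44 and 2 UMIs, most of them in CHT-derived cut. il6 and il12ba had 0 UMIs in csf3b/tnfb neutrophils of every library. Of 2 tested CXC chemokine genes, cxcl18b was higher (log2 fold change 1.74, edgeR adjusted p = 2.5e-06), at 36.7, 9.31, 30.5 and 7.12 CPM against 10.3, 7.55, 4.01 and 1.76 CPM. The sums of the other neutrophils alone would not have taken cxcl18b past the filter on low counts, so its call is a description. Only 7, 2, 11 and 2 csf3b/tnfb neutrophils held a cxcl18b UMI, and on thinned cells their share of 1.82%, 0.913%, 4.098% and 1.19% lay below the 2.90%, 2.96% and 1.52% of neural barcodes in RBI-derived cut, RBI-derived normal and CHT-derived normal, and above their 1.68% in CHT-derived cut. Other neutrophils held it in 0.686%, 0.318%, 1.32% and 0% of thinned cells, below both csf3b/tnfb neutrophils and neural barcodes in every library. Empty droplets held 7.78, 2.18, 46.8 and 14.2 CPM of cxcl18b, below csf3b/tnfb neutrophils in both RBI-derived libraries and above them in both CHT-derived ones. Whether the share in neural barcodes is a background level for cxcl18b was not tested. The source of its UMIs was not tested. Of 7 tested CC chemokine genes 3 were higher and none lower (ccl34a.4, ccl34b.1 and ccl34b.8), whose values stand with the macrophage markers. Over all tested genes 7.11% were higher and 2.56% lower.

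Receptors moved both ways. Of 17 tested, 6 were higher (35.3%) and 3 lower, with a median of 0.04, against 7.11% higher and 2.56% lower of all tested genes. il10ra, the ligand-binding chain of the interleukin-10 receptor, was 5.11-fold higher (37.9, 18.6, 53.4 and 16.02 CPM, against 6.77, 2.64, 10.9 and 3.82 CPM; edgeR adjusted p = 2.0e-14). The sums of the other neutrophils alone would not have taken il10ra past the filter on low counts, so its call is a description. By summed CPM the receptor and its ligand il10 were both higher in these cells than in other neutrophils. Thinned cells of RBI-derived normal did not show this for il10. Macrophages held 127, 42.6, 169 and 82.5 CPM of il10ra and empty droplets 33.7, 2.54, 103 and 26.2 CPM. ifngr1, a chain of the interferon-gamma receptor, had a log2 fold change of 1.23, cxcr1, a receptor of Cxcl8 chemokines, 0.72, tnfrsf1b, a TNF receptor, 0.70, and the flagellin receptor genes tlr5a and tlr5b 1.29 and 0.60. Lower were cxcr4b, the receptor of Cxcl12 that holds neutrophils in hematopoietic tissue, ltb4r, the receptor of leukotriene B4, and il6r. cxcr4b measured 93.6, 85.6, 166 and 196 CPM in csf3b/tnfb neutrophils of RBI-derived cut, RBI-derived normal, CHT-derived cut and CHT-derived normal, against 121, 154, 273 and 273 CPM in the others. It was lower in each library, 1.54-fold in the fit (edgeR adjusted p = 1.2e-06). ltb4r and il6r had log2 fold changes of -0.26 and -0.30. The call of tlr5a ended without RBI-derived cut (1.22), CHT-derived cut (1.01) or CHT-derived normal (1.22). tlr5a passed the filter on low counts only through csf3b/tnfb neutrophils, with 3.22, 4.91, 2.55 and 2.35 CPM in the others. The count of 6 higher receptors includes il10ra and tlr5a. csf3r, the receptor of the factor that csf3b encodes, measured 43.8, 46.5, 39.4 and 33.8 CPM, against 48.4, 48.7, 33.9 and 37.9 CPM (log2 fold change -0.06, edgeR adjusted p = 0.90).

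**Figure D4:**
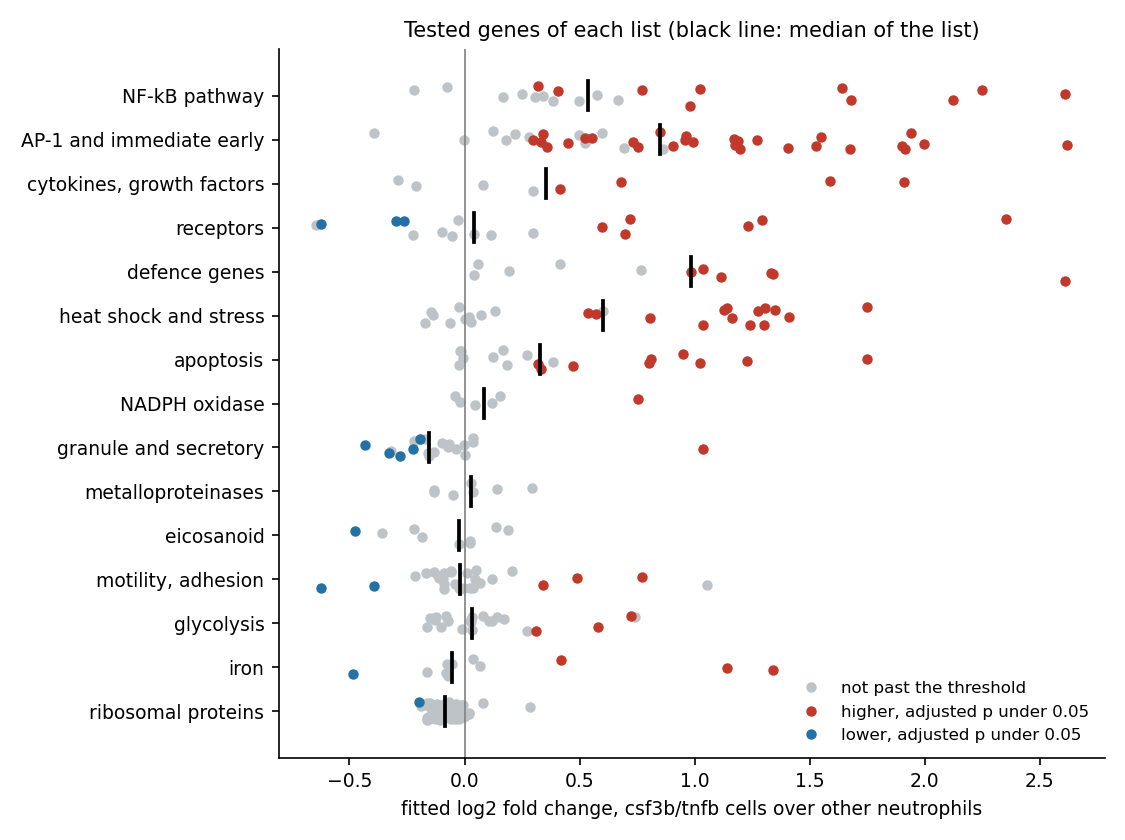
Fitted log2 fold change of every tested gene in 15 lists, red where higher and blue where lower at an adjusted p under 0.05, grey otherwise, with the list median as a black line. The NF-kB, immediate early, defence and stress lists have medians of 0.54 to 0.98, and granule, metalloproteinase and ribosomal protein genes have medians of -0.16 to 0.03.

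The RNA of metalloproteinase and granule genes was not called higher more often than that of all tested genes, of which 7.11% were higher and 2.56% lower. In lists of this size the counts of higher genes lay near that share. None of 7 tested metalloproteinase and related genes passed the test (median 0.03), mmp13a included (log2 fold change -0.13), although mmp13a was called lower without CHT-derived normal (-0.24, edgeR adjusted p = 0.030). Of 21 tested genes of the granule and secretory list 1 was higher and 5 lower, with a median of -0.16. The share lower was above the 2.56% of all tested genes. npsn, which encodes the neutrophil protease nephrosin, measured 8618, 12598, 8522 and 13219 CPM in csf3b/tnfb neutrophils of RBI-derived cut, RBI-derived normal, CHT-derived cut and CHT-derived normal, against 9470, 14041, 10281 and 14762 CPM in the others, a small fall in every library (-0.20, edgeR adjusted p = 0.020). srgn (-0.22), the proteoglycan that packs granules, and the protease gene ctsd (-0.43) were also lower, ctsd in 3 of 4 libraries. So were sms (-0.33) and sult6b1 (-0.28), enzyme genes that the list also holds and that do not encode granule proteins. The calls of ctsd ended without RBI-derived cut (-0.31) or RBI-derived normal (-0.37), and those of sult6b1 without RBI-derived cut (-0.24) or CHT-derived cut (-0.19). pglyrp5, a peptidoglycan recognition protein with antibacterial activity, was the exception, at 776, 330, 1559 and 315 CPM against 469, 151, 676 and 137 CPM (2.05-fold, edgeR adjusted p = 9.9e-23). Empty droplets held 993, 181, 2071 and 499 CPM of pglyrp5 and macrophages 1961, 1691, 3176 and 1836 CPM. How much of its RNA in neutrophils was free RNA was not tested. Of the oxidase genes that make superoxide, ncf1, the organizer subunit, was higher (1475, 1446, 1990 and 1370 CPM, against 1039, 810, 1251 and 644 CPM, log2 fold change 0.75), while cyba (0.12), cybb (0.15), ncf4 (0.05) and rac2 (-0.04) did not pass. Of 9 eicosanoid genes only alox12 passed, and it was lower (-0.48). It did not pass without RBI-derived cut (-0.44) or CHT-derived cut (-0.43).

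A list of defence genes, drawn up with earlier results of these libraries known, gave 6 higher of 11 tested and none lower, with a median of 0.98. All tested genes were higher in 7.11% and lower in 2.56%. Beside nfkbiaa and pglyrp5 these were acod1, which makes itaconate (log2 fold change 1.33), the transcription factor gene stat3 (0.98), dram1 (1.12), an autophagy gene, and hamp (1.34), which encodes hepcidin. acod1 measured 81.7, 84.7, 187 and 146 CPM, against 45.1, 29.1, 77.2 and 43.5 CPM, while macrophages held 344, 267, 549 and 627 CPM of it and empty droplets 41.5, 34.5, 122 and 106 CPM. hamp lay mostly in CHT-derived cut, at 319 against 96.5 CPM, and was at 28.4, 1.86 and 10.7 CPM against 16.4, 0 and 9.10 CPM in RBI-derived cut, RBI-derived normal and CHT-derived normal. dram1 was only just called (edgeR adjusted p = 0.049) and had 0 CPM in csf3b/tnfb neutrophils of CHT-derived normal, against 1.47 CPM. Without the RBI-derived normal library dram1 was not called (1.15, edgeR adjusted p = 0.11), and without CHT-derived cut hamp was not (0.69, edgeR adjusted p = 0.34).

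Stress genes were the other broad group. Of 25 tested, 14 were higher (56.0%) and none lower, with a median of 0.60, against 7.11% higher and 2.56% lower of all tested genes. dnajb1b, a co-chaperone of Hsp70, measured 777, 610, 714 and 626 CPM in csf3b/tnfb neutrophils of RBI-derived cut, RBI-derived normal, CHT-derived cut and CHT-derived normal, against 255, 308, 308 and 223 CPM in the others (2.47-fold, edgeR adjusted p = 1.3e-28). hsp70l (1.301), hsp70.1 (1.28), hsp70.2 (1.24) and hsp70.3 (0.81) were higher, although these near-identical copies share reads and their separate values are uncertain. So were gadd45aa (1.75) and gadd45ba (1.04) of growth arrest, ddit3 (1.35) and ppp1r15a (1.41) of the integrated stress response, and hmox1a (1.14), the heme oxygenase. Macrophages held 301, 441, 316 and 829 CPM of hmox1a, above the 45.0, 24.2, 55.9 and 21.4 CPM of csf3b/tnfb neutrophils. They held 580, 453, 747 and 585 CPM of dnajb1b, above csf3b/tnfb neutrophils only in CHT-derived cut. Their gadd45aa was lower in every library, at 75.3, 34.8, 65.3 and 53.5 CPM against 110, 95.9, 92.8 and 103 CPM. The source of hmox1a RNA in neutrophils was not tested. The constitutive chaperones hspa8 (-0.02), hspa5 (-0.06), hspd1 (-0.14) and hsp90ab1 (-0.15) did not pass. The median share of mitochondrial UMIs was 2.39%, 1.91%, 2.86% and 1.68% in csf3b/tnfb neutrophils of RBI-derived cut, RBI-derived normal, CHT-derived cut and CHT-derived normal, against 1.92%, 1.97%, 1.79% and 1.401% in the others. Under a limit of 5% on that share, 13 genes of the list were higher.

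Apoptosis genes of both directions were higher, 9 of 18 tested and none lower, with a median of 0.33. All tested genes were higher in 7.11% and lower in 2.56%. The protective ones were xiap (1.23), bcl2a (0.95), bcl2l1 (0.81), cflara (0.80), mcl1a (0.33) and birc2, and those that promote death were pmaip1 (1.03) and bida (0.47), with gadd45aa counted in this list too. birc2 was also counted in the NF-kB list, mcl1a in the immediate early list and gadd45aa in the stress list. xiap measured 27.2, 31.6, 26.7 and 40.9 CPM, against 11.3, 16.98, 12.8 and 11.5 CPM (edgeR adjusted p = 2.6e-06). Macrophages held 4.34, 3.87, 9.45 and 13.1 CPM of xiap. pmaip1 measured 79.4, 43.8, 141 and 51.6 CPM, against 46.1, 22.3, 65.6 and 17.9 CPM. Macrophages held more of pmaip1 in every library, at 502, 553, 612 and 472 CPM. casp3a (-0.02), casp8 (-0.01) and baxa (0.18) did not pass.

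In the lists of housekeeping and movement genes, the shares called were set against 7.11% higher and 2.56% lower of all tested genes. Of 80 tested ribosomal protein genes 1 was lower (rps6, -0.20) and none higher, although 75 of them had a fold change below 0, with a median of -0.08. Of 30 motility and adhesion genes 3 were higher, marcksl1a (0.77), tppp (0.49) and rhogb (0.34), and 2 lower, arpc5a (-0.39) of the Arp2/3 complex and cxcr4b. Of 22 glycolysis genes 3 were higher, the sugar transporter gene slc2a6 (0.72), pfkfb4b (0.58) and hk2 (0.31). Macrophages held 589, 387, 466 and 544 CPM of slc2a6 and 812, 619, 1154 and 1258 CPM of tppp. Both were above csf3b/tnfb neutrophils of the same library throughout. The calls of rps6, pfkfb4b and hk2 each ended without RBI-derived cut (-0.17, 0.57 and 0.31), CHT-derived cut (-0.21, 0.38 and 0.28) or CHT-derived normal (-0.18, 0.61 and 0.28). Of 11 iron genes 3 were higher and 1 lower. Ferritin genes split, with fth1a higher (3039, 2341, 3080 and 2228 CPM, against 2468, 1806, 2368 and 1384 CPM, log2 fold change 0.42) and fthl27 lower (4908, 4249, 5073 and 4905 CPM, against 8754, 5556, 6474 and 6022 CPM, log2 fold change -0.48). fthl27 sums more than 1 identifier and is one of several similar copies, so its value is uncertain.

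The genes with the largest negative changes were sparse, and such genes could pass the filter on low counts through the other neutrophils alone. selenoj (-1.68), mtrex (-1.59), nap1l4a (-1.52), htatip2 (-1.51), ints7 (-1.31), gpr137c (-1.27), tlcd4b (-1.26) and mea1 (-1.25) measured 0 to 10.7 CPM in csf3b/tnfb neutrophils, against 6.13 to 26.2 CPM in the others. selenoj (-1.32), mtrex (-1.10), ints7 (-1.16), gpr137c (-1.32), tlcd4b (-1.14) and mea1 (-1.18) were not called without RBI-derived cut, ints7 (-1.28), gpr137c (-0.86) and mea1 (-1.39) without RBI-derived normal, and tlcd4b (-0.91) and mea1 (-1.04) without CHT-derived cut. htatip2, an oxidoreductase gene, was the one of these called under every alternative that tested it, at 3.55, 7.45, 8.90 and 10.7 CPM against 20.3, 20.4, 26.2 and 15.6 CPM (edgeR adjusted p = 2.0e-05). Lower list genes with levels above 50 CPM included cxcr4b and fli1a (-0.52), an Ets factor gene of endothelium and blood cells.

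The levels of some genes rose with the number of csf3b and tnfb UMIs in a cell, though not at every step. This is a description only, because that number chose the cells and also depends on their depth. In RBI-derived cut, nfkbiaa measured 53.3 CPM in cells with no such UMI, 160 CPM with 1, 255 CPM with 2, 279 CPM with 3 to 5 and 775 CPM with 6 or more. In CHT-derived cut it was 91.5, 190, 299, 446 and 980 CPM over these steps, in RBI-derived normal 24.5, 51.8, 117, 107 and 245 CPM, and in CHT-derived normal 26.4, 37.96, 58.1, 248 and 382 CPM. For nfkbiaa, cells just outside the threshold lay between the cells with none and those just inside it in every library. il1b measured 623, 1213, 2327, 2505 and 5902 CPM over the same steps in RBI-derived cut and 571, 826, 761, 2344 and 3789 CPM in CHT-derived normal. mmp9 showed no such slope, at 7870, 7768, 6727, 8479 and 6986 CPM in RBI-derived cut.

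**Figure D5:**
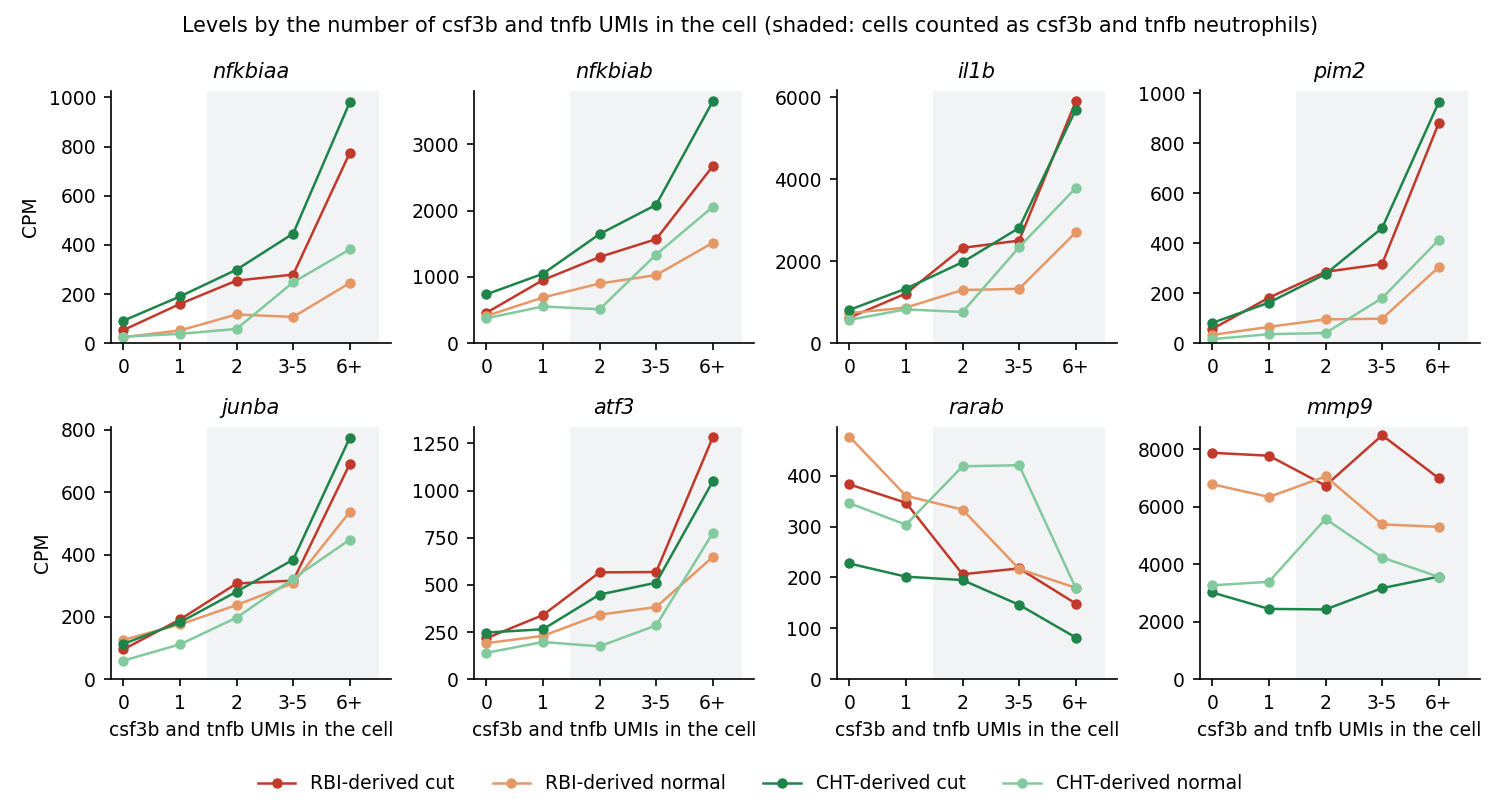
Level in CPM of 8 genes by the number of csf3b and tnfb UMIs in a cell, 1 line per library, with csf3b/tnfb neutrophils shaded. nfkbiaa, nfkbiab, il1b, pim2, junba and atf3 are highest at 6 or more UMIs in every library (nfkbiaa from 53.3 CPM at none to 775 CPM in RBI-derived cut), and mmp9 has no common direction.

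The csf3b and tnfb UMIs also split the cells, as a description only. Cells with tnfb only had 484, 180, 443 and 404 CPM of nfkbiaa in RBI-derived cut, RBI-derived normal, CHT-derived cut and CHT-derived normal, cells with csf3b only had 209, 105, 242 and 41.5 CPM, and cells with both 582, 218, 866 and 277 CPM. Cells with csf3b only were lowest in each library. They were also lowest for il1b, at 1957, 1041, 2742 and 1210 CPM against 3919, 2384, 2821 and 3029 CPM with tnfb only, although the values were close in CHT-derived cut. il10 did not have this order, at 113, 38.2, 297 and 77.1 CPM with csf3b only and 106, 16.1, 293 and 0 CPM with tnfb only. The csf3b-only group held 21 to 63 cells a library, and no test was made because the groups were formed from the genes of the rule. A gene with no UMI cannot be called absent, so the groups are not firm classes of cells and their order is not a result.

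Between conditions, the level of several raised genes in csf3b/tnfb neutrophils was higher in cut than in normal libraries of both origins. nfkbiaa was at 462 CPM in cut against 174 CPM in normal for RBI-derived cells and at 604 against 251 CPM for CHT-derived cells, pglyrp5 at 776 against 330 CPM and 1559 against 315 CPM, and il10 at 120 against 30.7 CPM and 310 against 44.5 CPM. The other neutrophils had the same order for these 3 genes, with nfkbiaa at 74.8 against 29.1 CPM and 120 against 28.2 CPM. Empty droplets had that order too, with pglyrp5 at 993 against 181 CPM and 2071 against 499 CPM. Whether the contrast between csf3b/tnfb and other neutrophils itself differed was tested as an interaction in edgeR. Between cut and normal libraries it differed for 2 of 6143 genes (0.0326%), ccl38a.5 and h1-10. Between RBI-derived and CHT-derived libraries it differed for 5 genes (0.0814%). Of these, s100z had the larger ratio in RBI-derived libraries (0.0163%), and the globin genes hbae1.3, hbbe1.2 and hbbe1.3 and the lysozyme gene lygl1 in CHT-derived ones (0.0651%). With 2 libraries on each side, differences of moderate size could go uncalled, and the count between cut and normal was 57 without RBI-derived normal, 23 without CHT-derived normal and 9 without CHT-derived cut.

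RNA of other cell types moved with the groups in the CHT-derived cut library. Of its csf3b/tnfb neutrophils 98 of 244 (40.2%) held more than 5 UMIs of 41 erythroid, muscle and neural marker genes, against 111 of 604 other neutrophils (18.4%), while in the other libraries at most 1.19% of csf3b/tnfb neutrophils did. The summed muscle list stood at 1411 CPM in csf3b/tnfb neutrophils of CHT-derived cut, against 542 CPM in the others, with none of 13 genes at 0, and at 52.1, 76.3 and 160 CPM, against 50.6, 78.1 and 127 CPM, in RBI-derived cut, RBI-derived normal and CHT-derived normal. The summed macrophage list of 22 genes ranged from 1569 to 2413 CPM in csf3b/tnfb neutrophils, against 1449 to 2135 CPM in the others, with 2 to 11 of its genes at 0. Of these lists 4 of 6 tested muscle genes (mylpfa, tnni2a.4, pvalb1 and pvalb2) and 4 of 10 macrophage genes (ccl34a.4, ccl34b.1, lgals2a and hamp) were higher, and spi1b (-0.25), an Ets factor gene of both myeloid lineages, was lower. Over all tested genes 7.11% were higher and 2.56% lower. ccl34a.4 measured 292 against 94.4 CPM in CHT-derived cut and at most 30.8 CPM elsewhere. The CC chemokine gene ccl34b.8 (0.91) was not limited to that library, at 14.2, 37.2, 47.0 and 17.8 CPM against 21.3, 15.5, 13.8 and 9.69 CPM. Without the CHT-derived cut library none of the muscle genes and 1 macrophage gene was called higher, and hamp was not. spi1b was not called without that library (-0.23) or without RBI-derived normal (-0.23), and ccl34b.8 without that library (0.57) or RBI-derived normal (0.74). Of the epidermis list, summed at 1887 to 2503 CPM in csf3b/tnfb neutrophils against 1323 to 1883 CPM in the others, icn (0.43) was higher among 4 tested genes. Most of that sum was icn itself, at 2121, 2457, 1737 and 2041 CPM in csf3b/tnfb neutrophils and 1827, 1817, 1279 and 1261 CPM in the others. Macrophages of these libraries held 33.3, 7.74, 21.6 and 21.8 CPM of icn. Empty droplets held 1413, 2159, 568 and 1044 CPM of icn. The epidermis sum thus mostly follows icn, and the source of icn RNA was not tested. When cells with more than 5 erythroid, muscle and neural UMIs were left out, none of the muscle and macrophage genes was called higher. In that fit 10 NF-kB, 28 immediate early, 14 stress and 9 apoptosis genes were called higher, and 410 of all 5876 genes tested. With no macrophage UMI allowed the counts were 11, 27, 14 and 9, and 364 of 5631 over all genes. The first limit counted no macrophage gene, and neither was a correction for free RNA. The source of the RNA of these called genes was not tested. The part of other cell types' RNA in the hamp and ccl34 values beyond these counts was not tested.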

How the data were processed

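Droplet data of 4 libraries were used, 1 matrix each for RBI-derived cut, RBI-derived normal, CHT-derived cut and CHT-derived normal cells. The authors deposited raw UMI counts per gene and barcode, made with Cell Ranger (7.1.0 in the matrix headers, where the study's text names another release) on GRCz11 per the submitters' processing notes. The annotation release is not given in the sources used here. Each matrix is registered under 4 entries (16 in all) with no map of cells to entries, so it was taken as 1 library. Codes in the labels ending in letters for red and green were read as the sorted colours. The matrices held 7409098 (RBI-derived cut), 8874272 (RBI-derived normal), 15982680 (CHT-derived cut) and 17303744 (CHT-derived normal) UMIs.

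Rows of 517 symbols with several identifiers were summed. UMIs were summed over the cells of each class and library, and genes past edgeR's filter on low counts (minimum 10) were tested with TMM scaling, library as a block and the quasi-likelihood test (edgeR 4.0.16, limma 3.58.1, R 4.3.3) with Benjamini-Hochberg adjustment. The 15 genes of the rule were left out of the tests but kept in the library sizes. The filter on low counts took the 2 classes as groups, so a sparse gene could pass through the class where it was higher alone. Differences of the contrast between cut and normal and between RBI-derived and CHT-derived libraries were interaction terms. CPM values are plain ratios of summed UMIs. Sums, intervals and plots were made in Python (3.11.15) with scipy 1.17.1, matplotlib 3.10.9, pandas 2.3.3 and numpy 2.4.6. The test was tried on simulated data first.

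Empty droplets were barcodes with 10 to 100 UMIs, macrophages had at least 10 UMIs of the 6 macrophage genes and lyz under 1% of UMIs, and neural barcodes had at least 5 UMIs of 15 neural genes. No doublet caller was run, and the limits on macrophage UMIs stood in for one. Intervals and floors (3 counts) cover counting error only.

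The cells, the 25 gene lists and the tests were chosen with earlier results of these data known. Genes were named by a rule: mmp9, the 12 largest positive and 8 largest negative changes among calls of 1 direction in all 4 libraries with at least 50 UMIs, and in each list up to 4 called genes by size of change or, with none called, 2 by level. Other list genes, and those of the closing observations, were named after their values were seen. Alternatives were DESeq2 size factors, the DESeq2 Wald test (1.42.0), other filters on low counts, no library block, each library left out, other comparison cells, thresholds, depth, macrophage, mitochondrial and barcode limits, and, chosen after seeing the data, leaving out cells with more than 5 UMIs of 41 erythroid, muscle and neural genes.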

Additional observations from a re-analysis of the deposited data

Results flagged for a closer look

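The contrast between csf3b/tnfb and other neutrophils differed between conditions for 7 genes by an interaction test in edgeR. ccl38a.5, a CC chemokine gene, had a log2 ratio that differed by -1.68 in cut libraries relative to normal ones (edgeR adjusted p = 1.4e-03). It measured 257 against 205 CPM in RBI-derived cut and 286 against 273 CPM in CHT-derived cut, and 200 against 65.3 CPM in RBI-derived normal and 71.2 against 15.3 CPM in CHT-derived normal (csf3b/tnfb neutrophils first in each pair). Empty droplets held 314 CPM of ccl38a.5 in RBI-derived cut, 173 CPM in CHT-derived cut, 45.1 CPM in RBI-derived normal and 17.3 CPM in CHT-derived normal. How much of the ccl38a.5 RNA in neutrophils was free RNA was not tested. The excess in csf3b/tnfb neutrophils was larger in uncut embryos, while in cut embryos both classes were high. It was called without each library in turn (-2.10 to -1.49) but not with no macrophage UMI allowed (-1.17, adjusted p = 0.10).

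h1-10, a linker histone gene, had a difference of -0.68 between cut and normal libraries (edgeR adjusted p = 0.042), at 653 against 1024 CPM in RBI-derived cut, 698 against 915 CPM in CHT-derived cut, 939 against 857 CPM in RBI-derived normal and 1020 against 991 CPM in CHT-derived normal. Without the RBI-derived cut library it was -0.57 (edgeR adjusted p = 0.87). The call of h1-10 also ended with DESeq2 size factors (adjusted p = 0.069 in edgeR), the DESeq2 Wald test (0.42), others without cytokine UMIs (0.078), thinning (0.35), no macrophage UMI (0.10) and no shared barcodes (0.056), and without the library block.

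Between RBI-derived and CHT-derived libraries the globin genes hbae1.3 (-5.36), hbbe1.2 (-3.89) and hbbe1.3 (-4.66) differed. hbbe1.3 measured 53.3 against 632 CPM in RBI-derived cut, 4.65 against 3.40 CPM in RBI-derived normal, 200 against 69.2 CPM in CHT-derived cut and 32.0 against 18.2 CPM in CHT-derived normal. Without the RBI-derived cut library the differences were -0.25 for hbae1.3, 0.31 for hbbe1.2 and -0.83 for hbbe1.3, none of them called, and without cells rich in other cell types' UMIs they were 0.68, 1.42 and 0.16. Without CHT-derived cut, hbae1.3 (-4.07) and hbbe1.2 (-3.41) were not called.

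lygl1 differed by -0.86 (edgeR adjusted p = 0.039) and was at 230 against 214 CPM in RBI-derived cut, 114 against 70.6 CPM in RBI-derived normal, 832 against 322 CPM in CHT-derived cut and 85.4 against 44.6 CPM in CHT-derived normal. It was not called without RBI-derived cut (-0.49) or CHT-derived cut (-0.65), nor with no macrophage UMI allowed (-0.55) or without cells rich in other cell types' UMIs (-0.42). Macrophages held 3271 to 5017 CPM of lygl1.

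s100z differed by 1.295 (edgeR adjusted p = 0.046), at 54.5 against 36.4 CPM in RBI-derived cut, 49.3 against 25.3 CPM in RBI-derived normal, 85.1 against 88.9 CPM in CHT-derived cut and 17.8 against 56.1 CPM in CHT-derived normal. It was called only without CHT-derived cut among the fits that left out a library (2.36), and not without RBI-derived cut (1.54), RBI-derived normal (1.11) or CHT-derived normal (0.89).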

How the results depend on the processing

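With 4 libraries of 4 conditions, the tests set the within-library difference against a spread that is partly shared between genes. With no replicate block, that is without the library term that pairs the 2 classes, 64 genes were higher and 1 lower, and 0 differed between cut and normal or between RBI-derived and CHT-derived libraries. nfkbiaa was then 2.54 (edgeR adjusted p = 0.075). Counts of higher and lower genes were 242 and 46 with the DESeq2 Wald test, 277 and 378 with no filter on low counts, and 183 and 86 on cells thinned to 1000 UMIs. Leaving out each library gave 317 to 397 higher and 83 to 165 lower genes, 2 to 57 genes differing between cut and normal, and 0 to 9 between RBI-derived and CHT-derived libraries.

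The count differing between cut and normal was 1 with DESeq2 size factors, the DESeq2 Wald test, others without csf3b or tnfb UMIs, thinning, no macrophage UMI or no shared barcodes, 10 with no filter, 9 with all other neutrophils or at least 2000 UMIs, 7 with at least 3 UMIs of the cytokines, 12 in the window of 3000 to 10000 UMIs and 5 without cells rich in other cell types' UMIs. Between RBI-derived and CHT-derived libraries it was 0 with the DESeq2 Wald test, at least 2000 UMIs or without those cells, 17 with all other neutrophils, 3 with others without cytokine UMIs or in the window, 2 with thinning and 8 without shared barcodes.

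The share of csf3b/tnfb neutrophils in RBI-derived cut, RBI-derived normal, CHT-derived cut and CHT-derived normal was 13.5%, 11.5%, 16.6% and 6.68% with thinning, 17.8%, 19.8%, 19.6% and 11.6% at 3 UMIs, and 38.9%, 36.95%, 50.2% and 27.7% at 1 UMI. With at least 2000 UMIs per barcode it was 20.2% in RBI-derived cut, 30.0% in RBI-derived normal, 20.6% in CHT-derived cut and 16.2% in CHT-derived normal, and with no macrophage UMI 24.3% in CHT-derived cut. The order of the cut and normal libraries of RBI origin therefore changed with depth.

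Of 71 called genes named, 15 were called at every alternative that tested them and 47 without each library. Of 1296 such fits 1066 kept the call, 228 lost it and 2 reversed, mylpfa at 2000 UMIs (-0.34) and tnni2a.4 in the window (-0.19). The log2 fold change of hbae3 (1.48) and the log2 fold change of hbbe1.3 (1.25) turned positive without RBI-derived cut and were -2.90 and -2.62 without CHT-derived cut. The causes were not tested.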

Other observations

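Genes outside the lists, chosen after their values were seen, add to the picture of csf3b/tnfb neutrophils. pim1, a kinase gene of the same family as pim2, measured 190, 105, 173 and 119 CPM in csf3b/tnfb neutrophils of RBI-derived cut, RBI-derived normal, CHT-derived cut and CHT-derived normal, against 37.1, 34.0, 50.6 and 28.5 CPM in the other neutrophils (log2 fold change 1.94, edgeR adjusted p = 3.7e-29). gpr84, a receptor for medium-chain fatty acids known from mammalian myeloid cells, measured 664, 353, 582 and 411 CPM, against 230, 153, 287 and 119 CPM (1.36). rgs2, which shortens signalling by G proteins, was at 400, 221, 571 and 420 CPM, against 132, 75.9, 161 and 105 CPM (1.73). ccng2, a cyclin gene linked to arrest of the cell cycle, was even across libraries, at 291, 266, 217 and 262 CPM against 85.8, 94.7, 83.4 and 81.9 CPM (1.56, edgeR adjusted p = 1.5e-29). In these 4 genes the lowest level in csf3b/tnfb neutrophils lay above the highest level in the others.

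Among genes that were lower stood several transcription factors. The retinoic acid receptor genes rarab and raraa had log2 fold changes of -0.73 and -0.59 (edgeR adjusted p = 7.0e-06 and 1.5e-06). rarab measured 188, 224, 136 and 310 CPM in csf3b/tnfb neutrophils, against 376, 457, 220 and 340 CPM in the others, and the gap was narrowest in CHT-derived normal. The homeobox genes ved and hhex had log2 fold changes of -0.69 and -0.92. hhex measured 66.3, 42.8, 85.1 and 65.8 CPM, against 118, 77.8, 185 and 109 CPM.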
